A study of Mus musculus with 14 samples.

Results

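The 10 genes described here encode the actins of the striated muscle thin filament and proteins of the Z-disc, and were taken from the deposited tables by gene symbol. They are Acta1 and Actc1 (actins), Actn2 and Actn3 (alpha-actinins), Myoz1, Myoz2 and Myoz3 (myozenins), Pdlim3 and Ldb3 (PDZ-LIM proteins) and Tcap (telethonin). All 10 were found, each as 1 of 49585 genes in each table. RNA-seq was done on hind limb skeletal muscle of wild-type (WT) mice and of Myf6 knockout (KO) mice, with injury or without, in 4 groups of 3 libraries. Myf6 (MRF4) belongs to the MyoD family of muscle transcription factors and is abundant in mature fibres. The labels give no age, sex, strain or knockout allele, and neither the kind of injury nor the time after it. Each library carries an animal number with the letter L when uninjured and R when injured. The same 3 WT and the same 3 KO numbers occur in both states, so the injured and uninjured libraries of a genotype are read as limbs of the same animals. WT and KO animals could not be told apart from litter or batch. A separate ChIP-seq experiment located Flag-tagged Myf6 on the chromatin of primary myotubes grown from adult satellite cells, with 1 library and 1 control.

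The sarcomere is the contractile unit of muscle, and the Z-disc is the plate at each of its ends. Actin filaments of neighbouring sarcomeres are anchored there by alpha-actinin, and myozenins, PDZ-LIM proteins and telethonin bind to alpha-actinin or to titin and connect the plate to signalling proteins such as calcineurin. Several of these proteins come as fibre-type pairs. ACTN3 is made in fast fibres and ACTN2 in all fibres, MYOZ1 and MYOZ3 belong to fast fibres and MYOZ2 to slow fibres and the heart. ACTA1 is the actin of adult skeletal muscle and ACTC1 that of the heart and of embryonic or regenerating muscle.

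MyoD family factors bind the E-box, the 6-base motif CANNTG, and serum response factor binds the CArG box, a motif of 10 bases that is known from actin promoters. The 250 bases before the gene start are shown for the 2 actins, as a pair that differs in its motifs. Also shown are Myoz2, which had the largest genotype difference, and Pdlim3, the only promoter examined that a Myf6 peak overlapped. No promoter sequence was at hand for Actn3, Myoz1, Myoz3 and Tcap, so overlap with a peak was not examined for these. The sequences are from RefSeq, build GRCm38.p6, and are written 5′ to 3′ on the strand of the gene with E-boxes and CArG boxes in capitals. They span chr8:123894776-123895025 (minus strand) for Acta1, chr2:114052876-114053125 (minus strand) for Actc1, chr3:123034988-123035237 (minus strand) for Myoz2 and chr8:45885237-45885486 (plus strand) for Pdlim3.
Acta1: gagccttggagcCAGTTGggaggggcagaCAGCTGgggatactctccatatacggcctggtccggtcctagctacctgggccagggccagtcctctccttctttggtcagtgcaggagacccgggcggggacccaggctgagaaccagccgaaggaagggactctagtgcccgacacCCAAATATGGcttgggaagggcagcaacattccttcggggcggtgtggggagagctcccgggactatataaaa
Actc1: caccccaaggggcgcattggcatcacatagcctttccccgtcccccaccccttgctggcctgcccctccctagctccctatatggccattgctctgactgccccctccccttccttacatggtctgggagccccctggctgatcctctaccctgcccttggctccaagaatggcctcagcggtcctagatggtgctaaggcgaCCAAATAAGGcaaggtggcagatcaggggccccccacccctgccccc
Myoz2: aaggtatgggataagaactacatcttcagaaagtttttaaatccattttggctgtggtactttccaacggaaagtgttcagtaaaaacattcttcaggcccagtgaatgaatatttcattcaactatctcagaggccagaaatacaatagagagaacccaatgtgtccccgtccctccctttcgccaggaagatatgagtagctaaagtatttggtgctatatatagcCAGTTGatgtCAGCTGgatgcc
Pdlim3: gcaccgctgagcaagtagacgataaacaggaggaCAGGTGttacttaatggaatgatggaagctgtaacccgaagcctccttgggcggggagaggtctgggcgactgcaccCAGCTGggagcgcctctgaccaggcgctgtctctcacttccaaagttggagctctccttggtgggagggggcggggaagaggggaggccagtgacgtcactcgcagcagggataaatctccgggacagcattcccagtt

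Both strands were searched for E-boxes, which read as CANNTG on either strand, and for CArG boxes. The Acta1 window held the E-boxes CAGTTG and CAGCTG, which began 238 and 221 bases before the start, and a CArG box 73 bases before it. The Actc1 window held a CArG box 47 bases before the start and no E-box. In the Myoz2 window CAGTTG and CAGCTG lay 22 and 12 bases before the start. The Pdlim3 window held CAGGTG at 216 and CAGCTG at 139 bases before the start. No motif overlapped another in these windows. An E-box occurred in 66.2% of the 32851 promoters in the RefSeq table, with at least 2 in 31.8%. A CArG box occurred in 1.47% of those promoters. Among the members with a promoter in the table (Acta1, Actc1, Actn2, Myoz2, Pdlim3 and Ldb3), it occurred in 3 of 6, namely Acta1, Actc1 and Ldb3.

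Read depth ranged from 1880087 reads (WT uninjured 2) to 49392472 (KO injured 3), and 3 reads correspond to between 0.0607 and 1.60 RPM (reads of a gene scaled to a library total of 1000000). Myf6 itself was at 25.0 to 121 RPM in the 6 WT libraries and at 1.86 to 3.46 RPM in the 6 KO libraries, so no library went against its genotype label. The libraries are identified below by group and replicate number. KO injured 2 stood apart from the other KO injured libraries: 23.2% of its reads came from mitochondrial genes, against 4.95% and 4.30%, and the nuclear RNA Malat1 was at 288 RPM, against 80.4 and 73.4 RPM. KO uninjured 2, of the same animal number, had 15.3% mitochondrial reads, against 6.76% and 3.63% in the other KO uninjured libraries. In the WT uninjured libraries the share was 13.8% to 22.3%, highest in WT uninjured 2, the shallowest library, and in WT injured 8.35% to 14.8%. The part of mitochondrial content in the genotype differences below was not tested, and values scaled to reads outside mitochondrial genes are given at the end. Malat1 was at 213 to 284 RPM in WT uninjured and 81.1 to 106 RPM in KO uninjured muscle. In WT injured muscle it was at 249 to 494 RPM, a range that held the value of KO injured 2. The 10 genes together took 3.51% to 3.72% of all reads in WT uninjured, 4.95% to 5.66% in KO uninjured, 4.26% to 4.84% in WT injured, and 5.70%, 3.25% and 5.79% in the KO injured libraries 1 to 3. In bulk muscle, fewer fibres of a type and less RNA per fibre cannot be told apart.

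**Figure D1:**
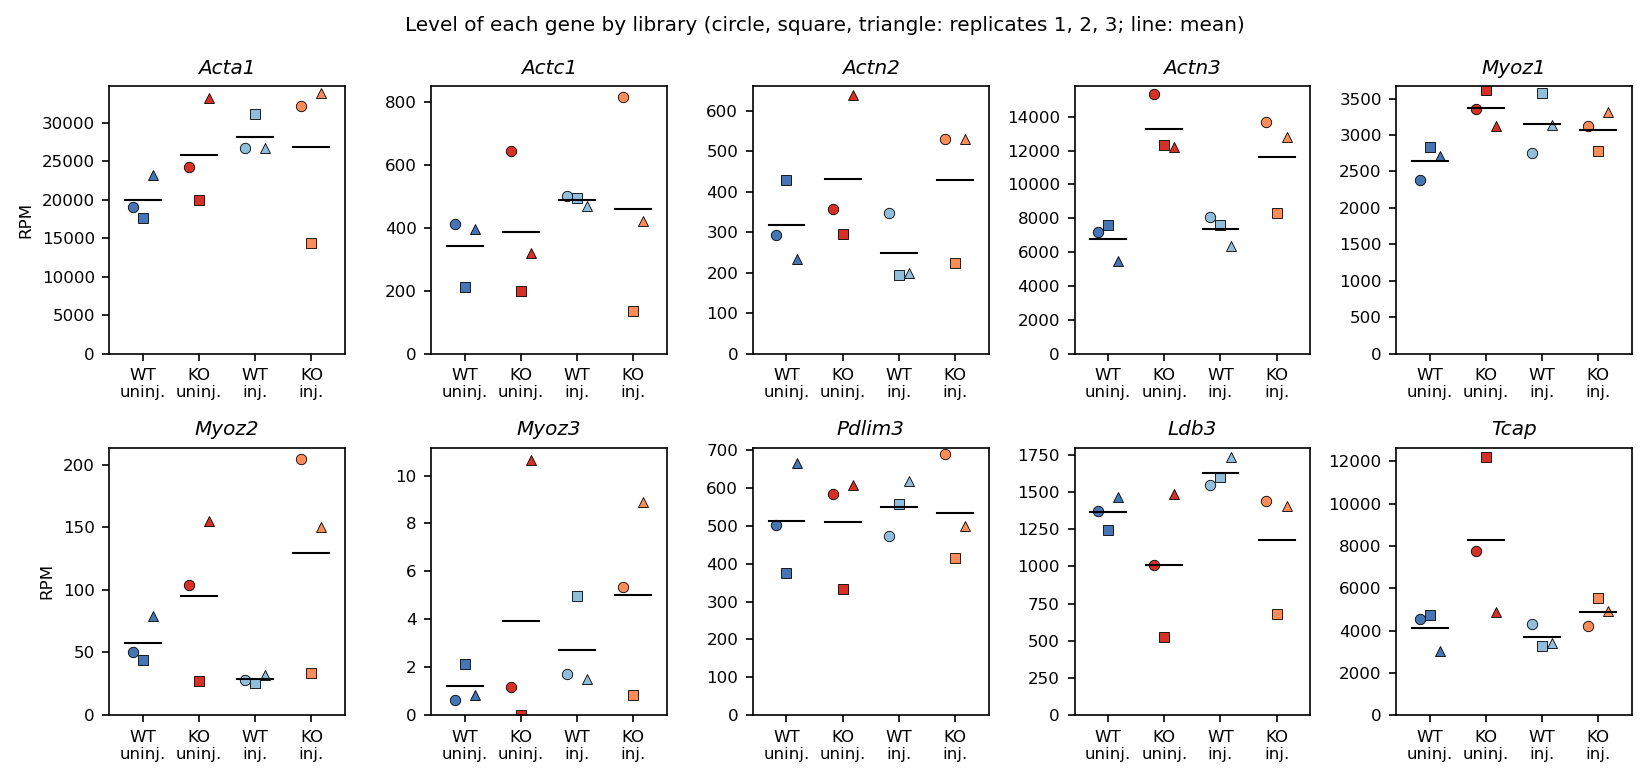
Level of each of the 10 genes in RPM (vertical axis, from 0, with its own scale per gene) in the 12 libraries, by group on the horizontal axis. Circles, squares and triangles are replicates 1, 2 and 3 and the black line is the group mean; for Actn3, all 3 KO libraries lie above all 3 WT libraries in both injury states, and KO injured 2 (orange square) lies below KO injured 1 and 3 for every gene but Tcap.

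In uninjured muscle, no gene of the group passed the test between genotypes, and the fast-fibre alpha-actinin Actn3 and the titin cap Tcap came closest, both higher in KO. All 10 genes passed the filter on low values (1 RPM in at least 3 libraries), Myoz3 with 3 libraries. None of the 10 had an adjusted p under 0.05 (limma with Benjamini-Hochberg adjustment over 12460 genes, two-sided), and 0.281% of all genes tested did. Before adjustment, with p under 0.05 as the threshold, 2 of the 10 were higher in KO and 0 lower, while 3.53% of all genes were higher and 10.7% lower, 14.2% in all. The estimate was positive for 8 of the 10 genes, against 36.8% of all genes. The median difference was 0.37 on the log2(RPM + 1) scale for the 10 genes and -0.18 for all genes. In 3 of the 10 genes (Actn3, Myoz1 and Tcap) all KO libraries lay above all WT libraries, which held for 6.20% of all genes. The reverse held for 0 of the 10 and for 15.5% of all genes.

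Actn3, which cross-links actin at the Z-disc of fast fibres, was at 7201, 7623 and 5446 RPM in the 3 WT uninjured libraries and at 15333, 12317 and 12197 RPM in the KO uninjured libraries. The lowest KO value was well above the highest WT value. Group means were 6757 ± 1155 and 13282 ± 1777 RPM (SD, n = 3 each), a difference of 0.98 (log2, SE 0.29) with an adjusted p of 0.189 by limma. DESeq2 on the whole reads recovered from the RPM values gave 1.17 with an adjusted p of 0.0115 and called 5.32% of genes. The authors' deposited table gives Actn3 a log2 change of 1.18 with a q-value of 0.0467, and 0.668% of its genes have a q-value under 0.05. EdgeR called 0 of the 10 genes and 0.441% of all genes. Over 17 alternative analyses, the adjusted p of Actn3 ranged from 0.0115 to 0.743.

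Tcap, the cap that joins the ends of 2 titin molecules at the Z-disc, was at 4561, 4751 and 3021 RPM in WT and 7779, 12202 and 4872 RPM in KO. The groups did not overlap, but the KO values spread over a wide range and KO uninjured 3 lay just above the highest WT value. The difference was 0.94 (log2, SE 0.38), with an adjusted p of 0.309 by limma, and the authors' deposited table gives 1.33 with a q-value of 0.238. Without KO uninjured 2 the limma difference was 0.61.

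Myoz1, the calcineurin-binding myozenin of fast fibres, was at 2377, 2831 and 2715 RPM in WT and 3363, 3612 and 3120 RPM in KO. Its values did not overlap either, with a smaller difference of 0.35 (log2, SE 0.25, adjusted p = 0.561 by limma). Ldb3, also known as ZASP or Cypher, links alpha-actinin to signalling kinases and had the most negative estimate of the 10. It was at 1372, 1247 and 1469 RPM in WT and 1007, 524 and 1488 RPM in KO, so that KO uninjured 3 was the highest of the 6 libraries and KO uninjured 2 the lowest. The difference was -0.56 (log2, SE 0.37, adjusted p = 0.536 by limma), and it was -0.15 without KO uninjured 2 and -0.90 without KO uninjured 3.

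The slow-fibre myozenin Myoz2 was at 50.6, 44.2 and 78.9 RPM in WT and 104, 27.1 and 155 RPM in KO. Its KO libraries lay on both sides of the WT range, and the difference was 0.43 (log2, SE 0.57, adjusted p = 0.78 by limma). Acta1 was at 18986, 17633 and 23192 RPM in WT and 24242, 19964 and 33199 RPM in KO, with overlapping groups and a difference of 0.35 (log2, SE 0.33), or 0.15 without KO uninjured 3. Actc1 was at 413, 212 and 398 RPM in WT and 643, 200 and 321 RPM in KO. Both groups had their lowest value in replicate 2, and the difference was 0.08 (log2, SE 0.44). Actn2 overlapped between genotypes at 233 to 429 RPM in WT and 296 to 639 RPM in KO, with a difference of 0.40 (log2, SE 0.35), or 0.073 without KO uninjured 3. Pdlim3, an alpha-actinin-associated LIM protein, was at 376 to 666 RPM in WT and 334 to 609 RPM in KO. Myoz3 was the scarcest member, with 4 to 26 reads per WT library and 31, 0 and 455 reads in the KO libraries, or 0.612 to 2.13 RPM against 1.18, 0 and 10.6 RPM. A count of 0 in KO uninjured 2 allows a level of up to 0.236 RPM (3 reads), a limit that covers counting error only. The adjusted p of Acta1, Actc1, Actn2, Pdlim3 and Myoz3 lay between 0.654 and 0.986.

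In injured muscle, again no gene passed, and the largest difference was that of Myoz2, which was higher in KO. None of the 10 genes had an adjusted p under 0.05 by limma over 12625 genes, against 0.269% of all genes. Before adjustment, 1 of the 10 (Myoz2) was higher and 0 lower, against 5.06% and 5.26% of all genes and 10.3% in both directions. Estimates were positive for 5 of the 10, against 52.0% of all genes, with a median of 0.19 against 0.01. All KO libraries were above all WT libraries for 2 of the 10, Actn3 and Myoz2, which held for 8.29% of all genes. All were below for Ldb3 alone of the 10, against 8.63% of all genes.

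Myoz2 was at 27.7, 25.6 and 32 RPM in WT injured muscle and at 205, 33.5 and 150 RPM in KO injured muscle. The WT libraries lay close together, KO injured 2 lay just above them, and KO injured 1 and 3 were far higher. The means were 28.4 ± 3.26 and 130 ± 87.5 RPM (SD, n = 3 each). The difference was 1.81 (log2, SE 0.62), with an adjusted p of 0.407 by limma. DESeq2 gave 2.19 with an adjusted p of 0.00944, calling 3.38% of genes. The authors' deposited table gives 2.22 with a q-value of 0.0213, and 0.454% of its genes are under 0.05. EdgeR called 0 of the 10 genes and 0.261% of all genes. Over 17 alternative analyses, the adjusted p of Myoz2 ranged from 0.00138 to 0.962.

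Leaving out KO injured 2, the library with the high mitochondrial share, brought 3 of the 10 genes past the threshold. This fit called 19.0% of 12312 genes, and 9.49% of the 12312 were called as higher. Myoz2 differed by 2.59 (log2, adjusted p = 0.00138), Actn2 by 1.15 (adjusted p = 0.0258) and Actn3 by 0.86 (adjusted p = 0.0386), all by limma. Over the alternatives run, the adjusted p ranged from 0.0258 to 1 for Actn2 and from 0.0386 to 0.989 for Actn3. Leaving out any other single injured library called 0 of the 10. The part that RNA quality or mitochondrial content had in the values of KO injured 2 was not tested.

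Actn3 was at 8103, 7612 and 6341 RPM in WT injured and 13709, 8333 and 12807 RPM in KO injured muscle, with KO injured 2 only a little above the highest WT library. The difference was 0.63 (log2, SE 0.30, adjusted p = 0.531 by limma). Actn2 was at 347, 195 and 200 RPM in WT and 530, 225 and 530 RPM in KO, where KO injured 2 fell inside the WT range. The difference was 0.74 (log2, SE 0.40, adjusted p = 0.575 by limma). Ldb3 was at 1548, 1600 and 1739 RPM in WT and 1437, 683 and 1406 RPM in KO, with every KO library below every WT library. Its difference of -0.55 (log2, SE 0.32, adjusted p = 0.601 by limma) was -0.19 without KO injured 2.

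Tcap was at 4326, 3281 and 3401 RPM in WT injured and 4223, 5544 and 4926 RPM in KO injured muscle. KO injured 2 was the highest library for Tcap, the reverse of its place for the other 9 genes among the KO injured libraries, and the difference was 0.42 (log2, SE 0.24, adjusted p = 0.589 by limma). Acta1 was at 26743, 31078 and 26675 RPM in WT and 32210, 14358 and 33789 RPM in KO, and Actc1 at 501, 494 and 469 RPM in WT and 817, 137 and 422 RPM in KO. In both actins the KO libraries spread to either side of a narrow WT range, with KO injured 2 lowest. Myoz1 ranged from 2755 to 3573 RPM in WT and 2779 to 3317 RPM in KO, Pdlim3 from 474 to 619 RPM in WT and 415 to 690 RPM in KO, and Myoz3 from 1.49 to 4.98 RPM in WT and 0.830 to 8.89 RPM in KO. The adjusted p of these 5 genes lay between 0.834 and 0.974.

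**Figure D2:**
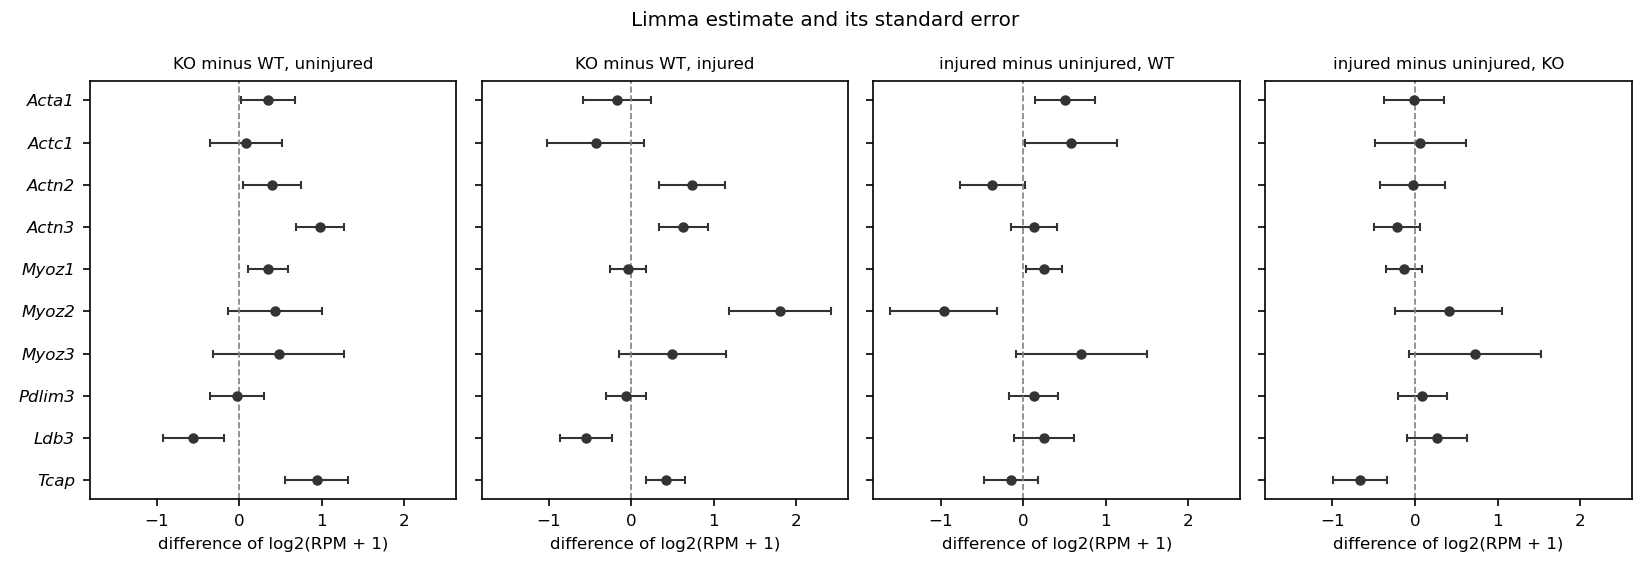
Estimated difference of log2(RPM + 1) for each of the 10 genes (points, horizontal axis) with its standard error (bars), for KO minus WT in uninjured and injured muscle and for injured minus uninjured muscle in WT and KO. Dashed lines mark no difference; Actn3 (0.98) and Tcap (0.94) lie furthest right in uninjured muscle and Myoz2 (1.81) in injured muscle.

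The 3 pairs of paralogs were also compared as ratios of (RPM + 1) values within each library, in which the scaling of the library cancels except for the 1 added, which weighs most on the scarcer gene. Since transcript length was not taken into account, only differences of a ratio between groups are read. The log2 ratio of Myoz2 to Myoz1, slow to fast myozenin, was -6.59, -7.07 and -6.57 in WT injured muscle and -3.92, -6.33 and -4.45 in KO injured muscle. Every KO library was above every WT library, and the difference was 1.84 (log2, SE 0.75; exact permutation test, two-sided, p = 0.1, adjusted over the 6 ratio tests p = 0.6). With 3 libraries against 3, 0.1 is the smallest p this exact test can give. In uninjured muscle that ratio overlapped between genotypes, with a difference of 0.08 (log2, SE 0.84, exact permutation p = 0.9). The ratio of Actn3 to Actn2 differed by 0.58 (SE 0.41, exact permutation p = 0.3) in uninjured and -0.10 (SE 0.29, exact permutation p = 0.8) in injured muscle. The ratio of Actc1 to Acta1, cardiac to skeletal actin, differed by -0.27 (SE 0.54, exact permutation p = 0.7) and -0.26 (SE 0.43, exact permutation p = 0.6). Adjusted over the 6 tests, these other 5 p-values were 0.9.

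**Figure D3:**
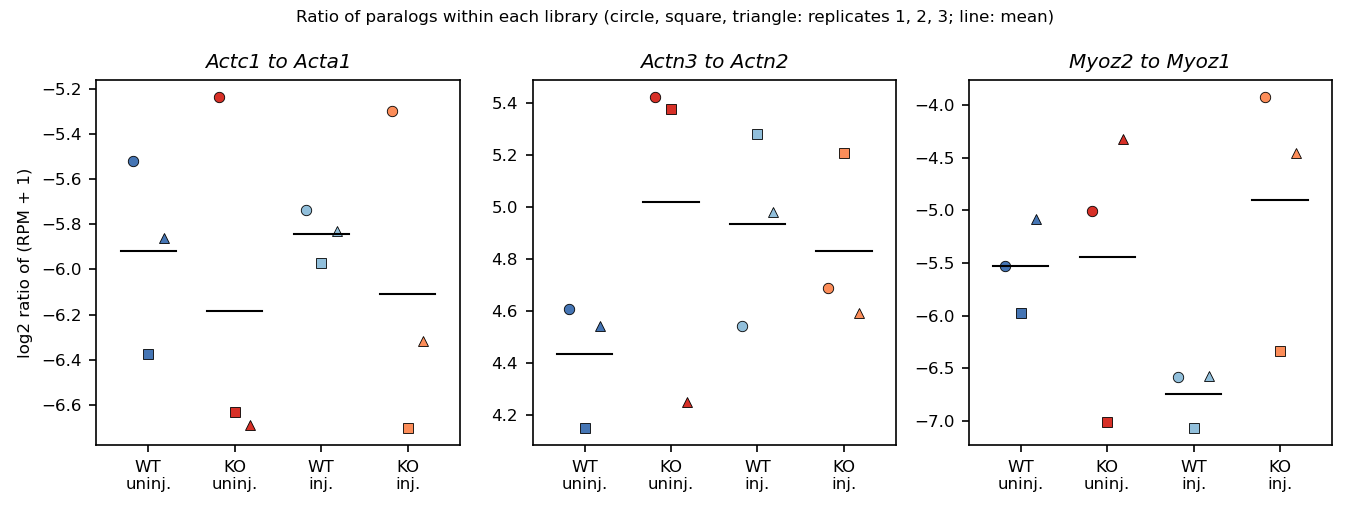
Log2 ratio of (RPM + 1) values for 3 pairs of paralogs (vertical axes, not starting at 0) in the 12 libraries by group; symbols are replicates 1, 2 and 3 and lines are group means. For Myoz2 to Myoz1 the WT injured libraries lie between -7.07 and -6.57 and all 3 KO injured libraries lie above them, while the groups overlap in the other comparisons of KO with WT in the same state.

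Injury was not followed by a called difference in any of the 10 genes. In WT animals, estimates for injured minus uninjured muscle ran from -0.96 (Myoz2) to 0.71 (Myoz3) on the log2 scale, with 7 of the 10 positive against 62.4% of all genes. None of the 10 passed limma (lowest p 0.162), and 0.00% of 13337 genes did (1.29% before adjustment). In KO animals the estimates ran from -0.67 (Tcap, SE 0.33, adjusted p = 0.728 by limma) to 0.73 (Myoz3), with 5 positive against 80.9% of all genes. Again 0.00% of all genes passed (3.51% before adjustment). The test of whether the effect of injury differed between genotypes called 0 of the 10 and 0.00% of all genes (1.56% before adjustment). These fits did not pair the limbs of an animal. With the animal as a block, limma p was under 0.05 before adjustment for 2 of the 10 in WT, 1 in KO and 1 for the interaction. The share of all genes at that level was not counted, and after adjustment 0 of the 10 and 0 of 13337 genes passed. The interaction estimate was positive in 4 of the 10 and in 68.1% of all genes, and was largest for Myoz2 at 1.37 (log2, SE 0.92, adjusted p = 1 by limma). It was 0.65 without KO uninjured 2 and 2.16 without KO injured 2. The KO injury estimate of Tcap was -0.34 without KO uninjured 2, and the WT injury estimate of Myoz3 was 0.31 without WT injured 2.

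By animal, Myoz2 was lower in the injured limb of all 3 WT animals, by -0.85, -0.76 and -1.28 (log2). In the KO animals its changes were 0.98, 0.30 and -0.04, so that it was higher in 2 of 3 and nearly level in the other. Acta1 was higher in the injured limb of the 3 WT animals, by 0.49, 0.82 and 0.20, and so were Actc1, Myoz1, Myoz3 and Ldb3. The share of all genes that went the same way in all 3 WT animals was not counted, and 62.4% of all genes had a positive WT estimate. For WT animal 2 the change rests on the shallowest library, WT uninjured 2, in which Myoz3 had 4 reads. The Actc1 change was 1.22 in this animal, against 0.28 and 0.24 in the other WT animals. In the KO animals Acta1 changed by 0.41, -0.48 and 0.03. Tcap changed by -0.88, -1.14 and 0.02 in the KO animals and by -0.08, -0.53 and 0.17 in the WT animals. These per-animal values describe 3 animals per genotype and were given no separate test.

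Markers of fibre types were read beside these genes. The summed level of 6 slow-fibre markers (Myh7, Myl2, Myl3, Tnni1, Tnnt1 and Tnnc1) was 1132 to 1384 RPM in WT uninjured, 1547 to 3330 RPM in KO uninjured, 283 to 1175 RPM in WT injured and 1438 to 4831 RPM in KO injured muscle. The KO libraries were above the WT libraries in both states. Of the 6 markers, 5 were higher in KO before adjustment in each state and 0 passed the adjusted threshold, with medians of 1.13 in uninjured and 2.22 in injured muscle. Over all genes, 3.53% and 5.06% were higher before adjustment, with medians of -0.18 and 0.01. Myh7, the slow myosin, differed by 1.88 (adjusted p = 0.0694 by limma) and 2.76 (adjusted p = 0.213). For injured minus uninjured muscle, 0 of the 6 markers had a positive estimate in WT (median -0.95) and 5 in KO (median 0.20). The interaction was positive for 6 of the 6 (median 1.08). Over all genes 62.4%, 80.9% and 68.1% were positive, with medians of 0.09, 0.29 and 0.20. In these comparisons 0 of the 6 passed the adjusted threshold. KO injured 1 was the highest library for both Myoz2 and the slow markers, and KO injured 2 the lowest KO injured library for both. KO injured 2 was also the lowest of these libraries for every other member but Tcap. In uninjured muscle the orders differed, with KO uninjured 3 highest for Myoz2 (155 RPM) and KO uninjured 1 for the slow markers (3330 RPM). KO uninjured 2 was below every WT uninjured library for Myoz2 (27.1 RPM) but above all of them for the slow markers (1547 RPM). The part of slow-fibre content in the Myoz2 values was not tested.

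**Figure D4:**
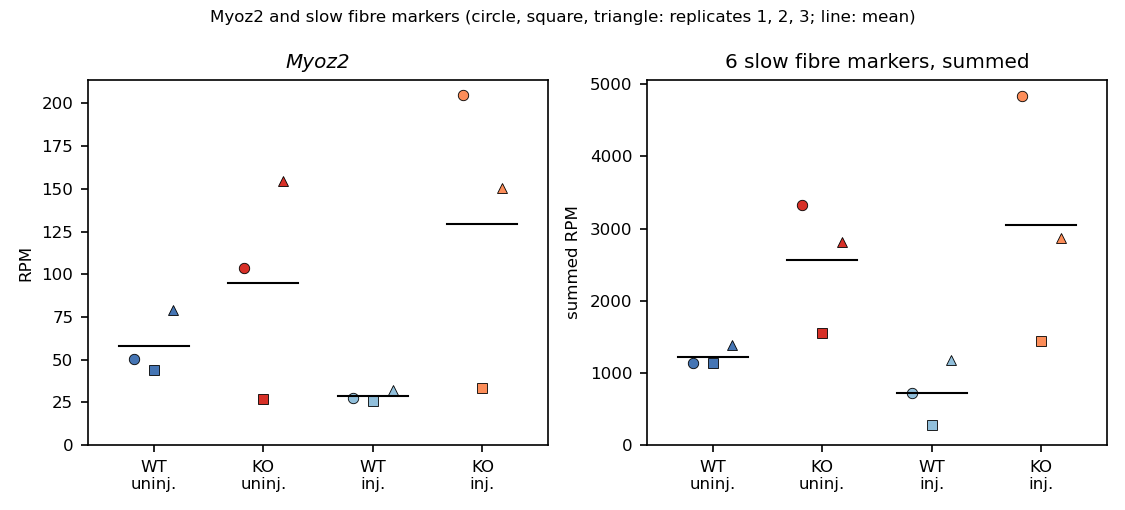
Myoz2 (left, RPM) and the summed RPM of 6 slow-fibre markers (right) in the 12 libraries by group; both axes start at 0, symbols are replicates 1, 2 and 3 and lines are group means. In injured muscle the KO libraries 1 and 3 lie far above the WT libraries in both panels (205 and 150 RPM of Myoz2), with KO injured 2 between them and the WT libraries.

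Fast-fibre markers (Myh1, Myh2, Myh4, Mylpf, Tnni2, Tnnt3, Tnnc2 and Pvalb) summed to 141465 to 163050 RPM in WT uninjured and 150506 to 231272 RPM in KO uninjured muscle, beside the fast-fibre genes Actn3 and Myoz1. In injured muscle the ranges were 143308 to 176626 RPM in WT and 144915 to 154634 RPM in KO. None of the 8 differed before adjustment in either state. Because Actc1 is a cardiac actin, heart markers were read beside it. Myl7 was at 0 in all 12 libraries, Nppa was at 0 to 0.0750 RPM and Tnnt2 at 0.630 to 6.62 RPM. The cardiac myosin Myh6 was the exception, at 0.532 to 2.03 RPM in the WT and 74.8 to 296 RPM in the KO libraries (6.64 with adjusted p = 0.000206 in uninjured and 6.40 with adjusted p = 0.00697 in injured muscle, limma). Myh6 lies next to its near-identical paralog Myh7, and the handling of shared reads is not given in the sources used here. Among markers of regenerating fibres, Myh3 was at or below 5.35 RPM, Myog at 2.05 to 9.53 RPM and Chrng at or below 0.791 RPM. Myh8 was at 646 to 1019 RPM in WT and 1246 to 2322 RPM in KO uninjured muscle, without overlap (1.05, adjusted p = 0.196 by limma). In injured muscle Myh8 overlapped, at 1038 to 1762 RPM and 778 to 2173 RPM. Myh3 overlapped in uninjured muscle. In injured muscle it did not, at 0.689 to 1.575 RPM in WT and 2.21 to 5.30 RPM in KO (1.09, adjusted p = 0.316 by limma). The 3 adipocyte markers summed to 38.8 to 152 RPM in WT and 110 to 286 RPM in KO uninjured muscle, and to 10.7 to 76.8 RPM and 59.2 to 392 RPM in injured muscle. Immune markers summed to 10.1 to 16.1 RPM in WT and 2.52 to 8.58 RPM in KO uninjured muscle, and globins to 282 to 465 RPM and 136 to 316 RPM. In injured muscle both overlapped between WT and KO, at 9.47 to 12.8 RPM and 6.03 to 11.7 RPM for immune markers and 141 to 353 RPM and 129 to 474 RPM for globins. Satellite cell markers summed to 19.7 to 23.5 RPM in WT and 24.9 to 36.8 RPM in KO uninjured muscle, without overlap. In injured muscle they overlapped, at 22.5 to 28.6 RPM and 25.95 to 34.1 RPM. Endothelial markers overlapped in uninjured muscle, at 146 to 196 RPM and 148 to 204 RPM. In injured muscle they did not, at 121 to 189 RPM in WT and 192.5 to 316 RPM in KO. Fibro-adipogenic markers overlapped in both states, at 232 to 746 RPM and 189 to 503 RPM in uninjured and 462 to 551 RPM and 398.5 to 509 RPM in injured muscle. The part of these cell types in the levels of the 10 genes was not tested.

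Other Z-disc and actin-filament genes were taken from 5 lists, and none passed the adjusted threshold by limma in either state. Their counts before adjustment stand against 3.53% of all genes higher and 10.7% lower in uninjured muscle (median of all genes -0.18) and 5.06% and 5.26% in injured muscle (median 0.01). Among 4 other actins, 0 were higher or lower before adjustment in uninjured muscle (median 0.29). In injured muscle 1 of 3 tested, the smooth-muscle actin Acta2, was higher before adjustment (1.06, adjusted p = 0.333 by limma; median of the list -0.14). The summed level of 3 smooth-muscle markers was 25.6 to 44.1 RPM in WT injured and 41.0 to 100 RPM in KO injured muscle. Among 7 other actinins and PDZ-LIM proteins, 1 was higher before adjustment in uninjured muscle (median 0.15) and 2 in injured muscle (median 0.04). These were Pdlim7 (0.57, adjusted p = 0.304) in the first, and Pdlim1 (0.80, adjusted p = 0.317) and the non-muscle alpha-actinin Actn4 (0.53, adjusted p = 0.464) in the second, all by limma.

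Among 25 other Z-disc genes tested, 7 were higher and 0 lower in KO uninjured muscle before adjustment, with a median of 0.21. That is a larger share than the 3.53% of all genes, and none passed after adjustment. The list was chosen with earlier results of these data known, so the share is a description and not a test. The lowest p was that of Des, the intermediate filament protein desmin that ties neighbouring Z-discs together, at 0.99 (adjusted p = 0.137), followed by Synpo2l at 0.69 (adjusted p = 0.218) and the titin- and actinin-binding Mypn at 0.92 (adjusted p = 0.219). In injured muscle 3 of the 25 were higher and 1 lower before adjustment, with a median of 0.22. Those of lowest p were Synpo2l at 0.63 (adjusted p = 0.415), the intermediate filament protein Synm at 1.06 (adjusted p = 0.442) and the ubiquitin ligase Trim63 at -0.43 (adjusted p = 0.468). Of 12 genes of thin filament length and capping, 1 was lower before adjustment in uninjured muscle, Capza1 at -1.36 (adjusted p = 0.302), and 0 were higher or lower before adjustment in injured muscle. The medians were 0.07 and 0.06. Of 8 genes of titin, the M-band and thick filament anchors, 2 were higher before adjustment in uninjured muscle, Myom2 at 1.20 (adjusted p = 0.206) and Mybpc2 at 0.97 (adjusted p = 0.232), with a median of 0.19. In injured muscle 1 was higher and 1 lower before adjustment, Myom1 at 0.79 (adjusted p = 0.407) and Obsl1 at -0.49 (adjusted p = 0.467), with a median of 0.56.

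Across the 12 libraries the 10 genes did not vary as one block. The highest Pearson correlations of log2(RPM + 1) were between Acta1 and Myoz3 (0.774), Actc1 and Pdlim3 (0.763), Actn2 and Myoz2 (0.758), Acta1 and Actc1 (0.726) and Pdlim3 and Ldb3 (0.701). Tcap went the other way from Ldb3 (-0.851) and from Pdlim3 (-0.626), and was highest in the KO uninjured library 2 in which Ldb3 was lowest. These correlations describe 12 libraries that fall into 4 groups and share depth and scaling, and are given with no p. Among the genes outside the group most like the mean of its standardised levels were Prkaca (r = 0.990), Cacnb1 (0.984), Hsp90ab1 (0.971) and Bcl2l13 (0.970), over the same 12 libraries. Those most like Actc1 alone were Ctxn3 (0.876), Tcea3 (0.869), Banf1 (0.861), Ndufb6 (0.860) and Rpl7a (0.860).

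In the myotubes, Flag-Myf6 peaks lay close to several of these genes. The deposited list holds 12898 peaks with a median fold enrichment of 7.68 over the local background, a value that is the authors' own for each peak. Of the 6 members with a start in the RefSeq table, 5 had a peak within 10 kb of the start, against 12.7% of 17492 genes. Within 50 kb the count was 6 of 6 against 39.1%, within 1 kb it was 4 of 6 against 2.88%, and for peaks of at least 10-fold enrichment within 10 kb it was 2 of 6 against 3.59%. Within 10 kb of the whole gene, a setting added after seeing the data, all 10 members had a peak, against 25.8% of 21887 genes. There were 22 such peaks in all. The shares are over protein-coding genes that were matched to the members neither for length nor for expression. With 1 library and 1 control there is no replicate of these peaks, and they come from cultured myotubes and not from the muscles of the RNA-seq.

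Acta1 (chr8:123891758-123894775) had 5 peaks within 10 kb. Summits of 3 lay 618, 1104 and 1409 bases upstream of the start, with fold enrichments of 10.98, 5.03 and 11.4, and the closest spanned chr8:123895290-123895508. The other 2, of 9.90 and 6.66, lay beyond the far end of the gene. None overlapped the promoter window shown above. Actc1 (chr2:114047282-114052875) had 3 weaker peaks, one inside the gene 1195 bases after the start with a fold of 2.90, and 2 upstream at 4757 and 7500 bases with folds of 5.25 and 4.25. Both actins therefore had upstream peaks, those of Acta1 being nearer to the start.

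Myoz2 (chr3:123006206-123035003) had 1 peak, inside the gene with its summit 1033 bases after the start, at chr3:123033859-123034033 with a fold of 9.02. Pdlim3 (chr8:45885487-45919635) had 3 peaks. One at chr8:45885204-45885330, with its summit 208 bases upstream and a fold of 5.80, overlapped the promoter window by 94 bases, and the strongest lay 7575 bases upstream with a fold of 14.5. Actn2 (chr13:12269426-12340732) had 3 peaks inside the gene, the strongest of 13.9-fold, and 1 of 6.77-fold 871 bases upstream. The peaks of Actn3 (5.80), Myoz1 (7.20) and Ldb3 (8.37) were single and lay inside the genes. That of Tcap (4.95) lay 354 bases outside its gene. The peak of highest enrichment in the group was one of 2 beside Myoz3, of 17.4-fold, 61 bases beyond the gene's end of higher coordinates and at the 96.7 percentile of all peaks.

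**Figure D5:**
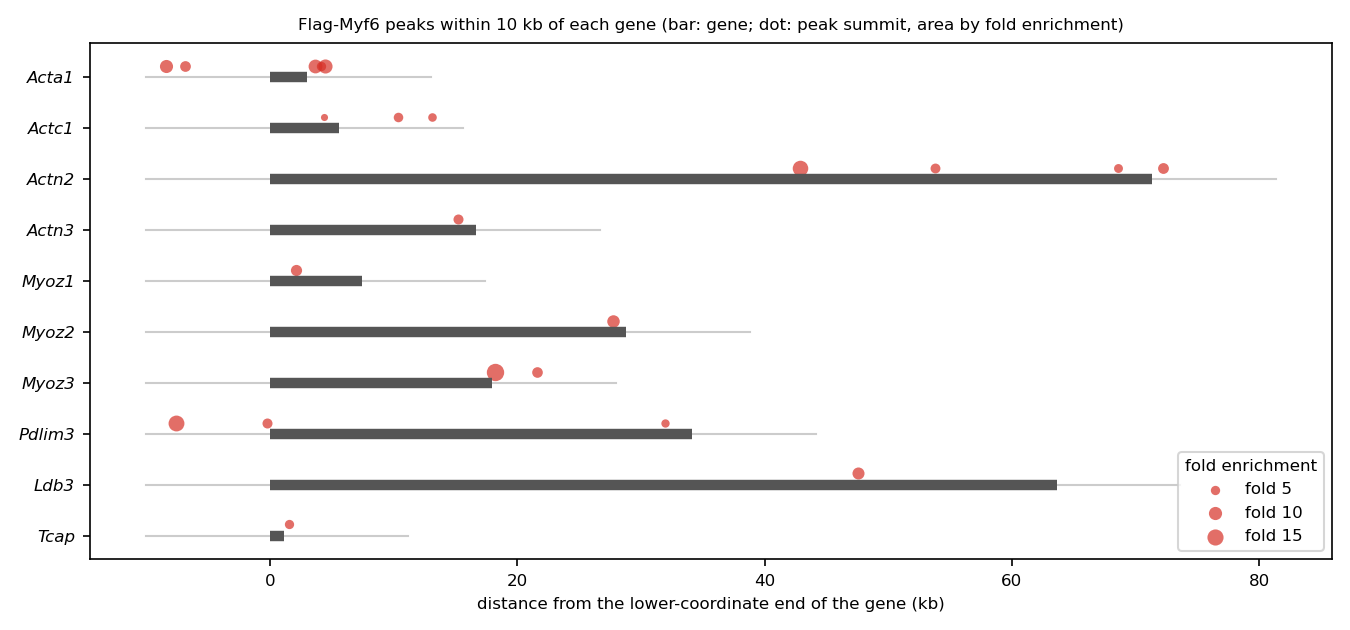
Summits of the Flag-Myf6 peaks within 10 kb of each of the 10 genes (red dots, area by fold enrichment) along the distance in kb from the end of the gene with the lower coordinate; dark bars are the genes and grey lines the 10 kb on both sides. Acta1 has 5 dots, 3 of them just beyond one end, and the largest dot belongs to Myoz3 (17.4-fold).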

How the data were processed

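Deposited tables, 1 for uninjured and 1 for injured muscle, give RPM per gene and library, scaled by the authors to a total of 1000000. Libraries were made with the TruSeq RNA v2 kit from Trizol-extracted RNA, per the labels' protocols. The submitters' processing notes name HISAT2 2.1.0, SAMtools, featureCounts, DESeq2, Bowtie 1.1.0 and the builds mm10 and GRCm38.p5. MACS2 2.1.0.20140616 called the peaks, per the file headers. Strand use and treatment of shared reads are not given in the sources used here. The authors' deposited log2 changes, p-values and q-values were turned to KO over WT; all 331 and 225 genes under a q-value of 0.05 had the sign of WT minus KO. Peak fold enrichment (a ratio), signal height and −log10 q-values are the authors' deposited values.

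RPM values were divided by the value of 1 read: 100% of values under 5000 reads came within 0.1 of a whole read. RPM values sum to a fixed total, so a few abundant genes can shift all others. Limma 3.58.1 (R 4.3.3) was fitted to log2(RPM + 1) for genes reaching 1 RPM in 3 or more of the libraries fitted, with a trended prior, Benjamini-Hochberg adjustment over all genes and a threshold of 0.05. Genotypes were compared within a state on 6 libraries, injury and the interaction on all 12. For scarce genes such as Myoz3 a difference on this scale depends on the 1 added. In uninjured muscle Myoz3 differed by 0.48, by -0.047 with 0.1 added and by 1.72 with DESeq2. The limma script was tested on simulated data. DESeq2 1.42.0 and edgeR 4.0.16 on recovered reads were alternatives. P-values measure the spread between 3 libraries per group. No libraries agreed within sampling noise (lowest mean chi-square per gene 12.1, between WT uninjured 2 and KO injured 2). For KO injured 2 the value was 503 and 596 with KO injured 1 and 3. With WT injured 1, 2 and 3 it was 97.5, 284 and 118. These values grow with depth, which differed between the libraries. The 10 genes and all gene lists were chosen with earlier results of these data known. Every member was to be named, and of each list the counts, the median and up to 3 genes of lowest p. Lists were: other actins (Acta2, Actg2, Actb, Actg1); other actinins and PDZ-LIM proteins (Actn1, Actn4, Pdlim1, Pdlim2, Pdlim4, Pdlim5, Pdlim7); other Z-disc proteins (26, of them Des, Synm, Mypn, Myot, Flnc, Csrp3 and Trim63); thin filament length and capping (12, of them Neb, Tmod4, Lmod3 and Capza1); and titin, M-band and thick filament anchors (8, of them Ttn and Myom1). Replicate numbers pair limbs of 1 animal: the deviations of same-numbered libraries correlated at 0.278, -0.231 and 0.0156 in WT and 0.024, 0.504 and 0.628 in KO. Gene positions are those of GRCm38.p6. A genome sequence was not used here.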

Additional observations from a re-analysis of the deposited data

How the results depend on the processing

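Of the 10 genes, 0 were called between genotypes or by injury under other scalings, pseudocounts and filters, all 12 libraries in 1 fit, edgeR, and the replicate block. In uninjured muscle DESeq2 and the authors' deposited q-value each called 1 (Actn3), and leaving out 1 library called 0. In injured muscle DESeq2 and the deposited q-value each called 1 (Myoz2), and leaving out 1 library gave 0 to 3, with 3 only without KO injured 2. Replicate numbers of WT and KO share only a number: same-numbered libraries correlated at 0.0368, 0.256 and 0.373 in uninjured and -0.452, -0.603 and -0.3 in injured muscle. With that replicate block the genes called went from 35 to 752 of 12460 in uninjured and from 34 to 0 in injured muscle. None of the 10 was called in either state. In uninjured muscle it called 5 of 25 other Z-disc genes and 1 of 8 in the titin and M-band list, and none in the other lists of actin-filament genes. Among markers it called 4 of 6 slow-fibre, 1 of 8 fast-fibre, 3 of 3 adipocyte and 2 of 3 fibro-adipogenic genes. It also called 1 of 3 each of the cardiac, regenerating-fibre and globin genes tested, and none of the other markers. The block on the animal also called 0 of the 10 for injury. Peaks within 10 kb of the start were found at 2 members with at least 10-fold enrichment and at 10 when the whole gene was used, a setting added after seeing the data.

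Small uninjured differences changed sign, and the cause was not tested. Actc1 was -0.074 when scaled to reads outside mitochondrial genes. Myoz3 was -0.047 with a pseudocount of 0.1. Pdlim3 was 0.093 with upper quartile scaling, 0.17 with TMM, 0.17 with DESeq2, 0.16 with edgeR and 0.17 in the authors' deposited table. Leaving out 1 library moved uninjured differences from -0.36 to 0.48 for Actc1, -0.076 to 1.16 for Myoz2 and -0.23 to 0.25 for Pdlim3. It moved injured differences from -0.39 to 0.23 for Acta1, -1.02 to 0.27 for Actc1, -0.13 to 0.058 for Myoz1, -0.012 to 1.21 for Myoz3 and -0.26 to 0.10 for Pdlim3. The Myoz3 change with injury in KO ran from -0.051 to 1.72 and the Actc1 interaction from -1.10 to 0.19, the latter being 0.50 without WT uninjured 2 and KO injured 2 together, a setting added after seeing the data. Among the ratios, the uninjured Actc1 to Acta1 difference ran from -0.74 to -0.015, the uninjured Actn3 to Actn2 difference from 0.38 to 0.97, the injured Actc1 to Acta1 difference ran from -0.67 to 0.036, the injured Actn3 to Actn2 difference from -0.30 to 0.067 and the uninjured Myoz2 to Myoz1 difference from -0.48 to 0.86. Scaling moved the median of all genes in uninjured muscle from -0.18 to -0.08 (upper quartile), -0.02 (TMM) and -0.32 (outside mitochondrial genes). Depth limits Myoz3 in particular, with 0 to 455 reads, and it has no value where it failed the filter.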
